A study of Mus musculus with 1 sample.

Results

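The genes described here were 4 interferon receptor chains, 4 transcription factors of interferon signalling and 40 interferon-stimulated effector genes. They were chosen by gene symbol, and each of the 48 symbols matched a row among the 23282 rows of the table. The data were 1 RNA-seq library of control glia, in which mixed glial cells had been cultured from the ventral midbrain of outbred ICR (CD-1) mice at postnatal day 5. The study asked how inhibitors of the kinase SGK1 act on such glia, and its control cultures received the vehicle DMSO. Inhibitor-treated libraries were not analysed here, the number of pups behind the culture was not given, and the labels did not say whether the control was also exposed to the toxins named in the treatment protocol.

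Interferons are cytokines that cells release on sensing viruses or other danger signals. Type I interferons bind the receptor chains Ifnar1 and Ifnar2, and interferon gamma binds Ifngr1 and Ifngr2. The receptors act through Janus kinases on Stat proteins. Stat2 takes part with Irf9 in a complex that binds the interferon-stimulated response element, whereas interferon gamma acts mainly through the gamma-activated site. The genes behind these elements encode proteins that block virus entry, degrade or sense foreign nucleic acids, or attack the vacuoles of intracellular microbes. In brain cultures, both microglia and astrocytes are known to respond to interferons.

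With 1 library there was no replicate and no second group, so no value below has an error and no difference was tested. The values were normalised read counts in whole numbers, as the authors deposited them, and summed to 27569507. A gene was called detected at a value of 10 or more, which 15648 genes reached, with a median of 469 among them. Because long genes collect more reads, levels of different genes are compared per kilobase of annotated exon, and the detected genes had a median of 103 on that scale. In a bulk culture, fewer cells of a type and less RNA per cell cannot be told apart.

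Markers of the cells expected in mixed glia were present. The 10 microglia markers had a median of 9341, with the lowest at 984 for Tmem119, and the 9 astrocyte markers ran from 604 for S100b to 17222 for Gfap. The 6 mesenchymal markers ran from 455 for Lum to 26499 for Acta2, and the 5 oligodendrocyte markers had a median of 262, with the lowest at 48 for Sox10. Neuron markers had a median of 13, from 0 for Slc17a6 to 868 for Map2, and endothelial markers a median of 33, from 0 for Tek to 119 for Kdr. None of the 4 T and NK cell markers was detected, with values from 0 for Nkg7 to 4 for Ncr1. The 4 plasmacytoid dendritic cell markers, 1 of which is the effector gene Bst2, ran from 6 for Ccr9 to 2115 for Tcf4. Which cells the interferon genes came from was not tested.

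The promoters are shown first because the letters of the pathway's binding elements can be read in many of them. RefSeq promoter windows on the GRCm38.p6 build, from 250 bases before to 50 bases after the start, were given for 39 of the 48 genes. They were searched on both strands for the core of the response element, GAAANNGAAA, and for the gamma-activated site, TTCNNNGAA, whose letters read alike on both strands. Capitals mark the matches, which on the opposite strand appear as TTTC repeats. The 7 stretches below, each ending at the base before the start, were chosen to show a tandem core (Isg15, Ifit1), a core overlapping a gamma-activated site (Bst2), a lone core (Gbp2), a site and a core side by side (Igtp, Irgm2) and a gamma-activated site alone (Irf1).
Isg15, chr4:156200819-156200958, minus strand: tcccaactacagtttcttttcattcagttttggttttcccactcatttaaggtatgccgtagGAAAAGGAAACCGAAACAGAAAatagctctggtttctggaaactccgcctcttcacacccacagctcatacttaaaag
Ifit1, chr19:34640749-34640888, plus strand: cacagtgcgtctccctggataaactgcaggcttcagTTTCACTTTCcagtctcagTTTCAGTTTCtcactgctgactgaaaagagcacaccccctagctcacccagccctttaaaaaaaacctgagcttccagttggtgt
Bst2, chr8:71537473-71537612, minus strand: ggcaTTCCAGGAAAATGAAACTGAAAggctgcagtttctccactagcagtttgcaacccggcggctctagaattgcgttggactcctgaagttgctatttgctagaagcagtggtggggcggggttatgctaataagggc
Gbp2, chr3:142620523-142620662, plus strand: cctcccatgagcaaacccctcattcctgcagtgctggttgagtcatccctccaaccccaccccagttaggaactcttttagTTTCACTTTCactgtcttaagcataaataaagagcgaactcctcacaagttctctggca
Igtp, chr11:58199416-58199555, plus strand: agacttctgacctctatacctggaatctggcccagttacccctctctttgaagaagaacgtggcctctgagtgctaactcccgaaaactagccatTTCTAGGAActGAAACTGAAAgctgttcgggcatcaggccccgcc
Irgm2, chr11:58214837-58214976, plus strand: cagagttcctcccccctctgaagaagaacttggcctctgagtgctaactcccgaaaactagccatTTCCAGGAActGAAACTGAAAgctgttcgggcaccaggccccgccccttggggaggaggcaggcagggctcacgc
Irf1, chr11:53769874-53770013, plus strand: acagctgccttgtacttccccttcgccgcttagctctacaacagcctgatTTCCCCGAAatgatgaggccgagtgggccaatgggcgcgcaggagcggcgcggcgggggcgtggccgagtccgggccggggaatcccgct

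In the promoter of Isg15, which encodes a ubiquitin-like protein, 3 overlapping core matches filled the bases from -78 to -57 relative to the start. Ifit1, which encodes a protein that binds foreign RNA ends, and its relative Ifit3 each had 2 core matches on the opposite strand. Ifit2 had a gamma-activated site at -241 and no core. Igtp and Irgm2, neighbouring genes for immunity-related GTPases, shared an identical run of 38 bases, and in both the gamma-activated site lay 2 bases before the core.

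The response element core was present in 20 of the 39 promoters (51.3%), against 3.91% of the 17217 genes with both a promoter and a row in the table. The gamma-activated site was present in 17 of 39 (43.6%), against 9.26% of the same genes. Both motifs were found in 9 promoters (23.1%, against 0.71% of all genes) and neither in 11. A match is a description of the letters, not of binding, and many of these genes were first named for their response to interferon.

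The motifs were also counted by group, beside the shares of all genes, 3.91% for the core and 9.26% for the gamma-activated site. None of the 4 receptor promoters held the core, which in so few genes cannot be told from the share of all genes. The gamma-activated site was in 2 of them (50%), Ifnar1 and Ifnar2. Among the transcription factors, the core was in Irf2 and Stat2. Of the 31 effector promoters, 18 (58.1%) held the core, among them 4 of 4 GBP genes and 3 of 4 IRG genes, and 13 (41.9%) held the gamma-activated site. Over all windows of a gene, the core occurred once in 11 genes and more often in 9. Among the latter, the matches of Trim30a lay in separate windows. For 16 genes a match lay within 200 bases before the start.

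The core did not separate high from low effector genes in this library. The 18 effectors with the core had a median level per kilobase of 182, with a range from 8.63 to 5641, and the 13 without it had a median of 120, with a range from 0 to 1395. The ranges overlapped widely.

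**Figure D1:**
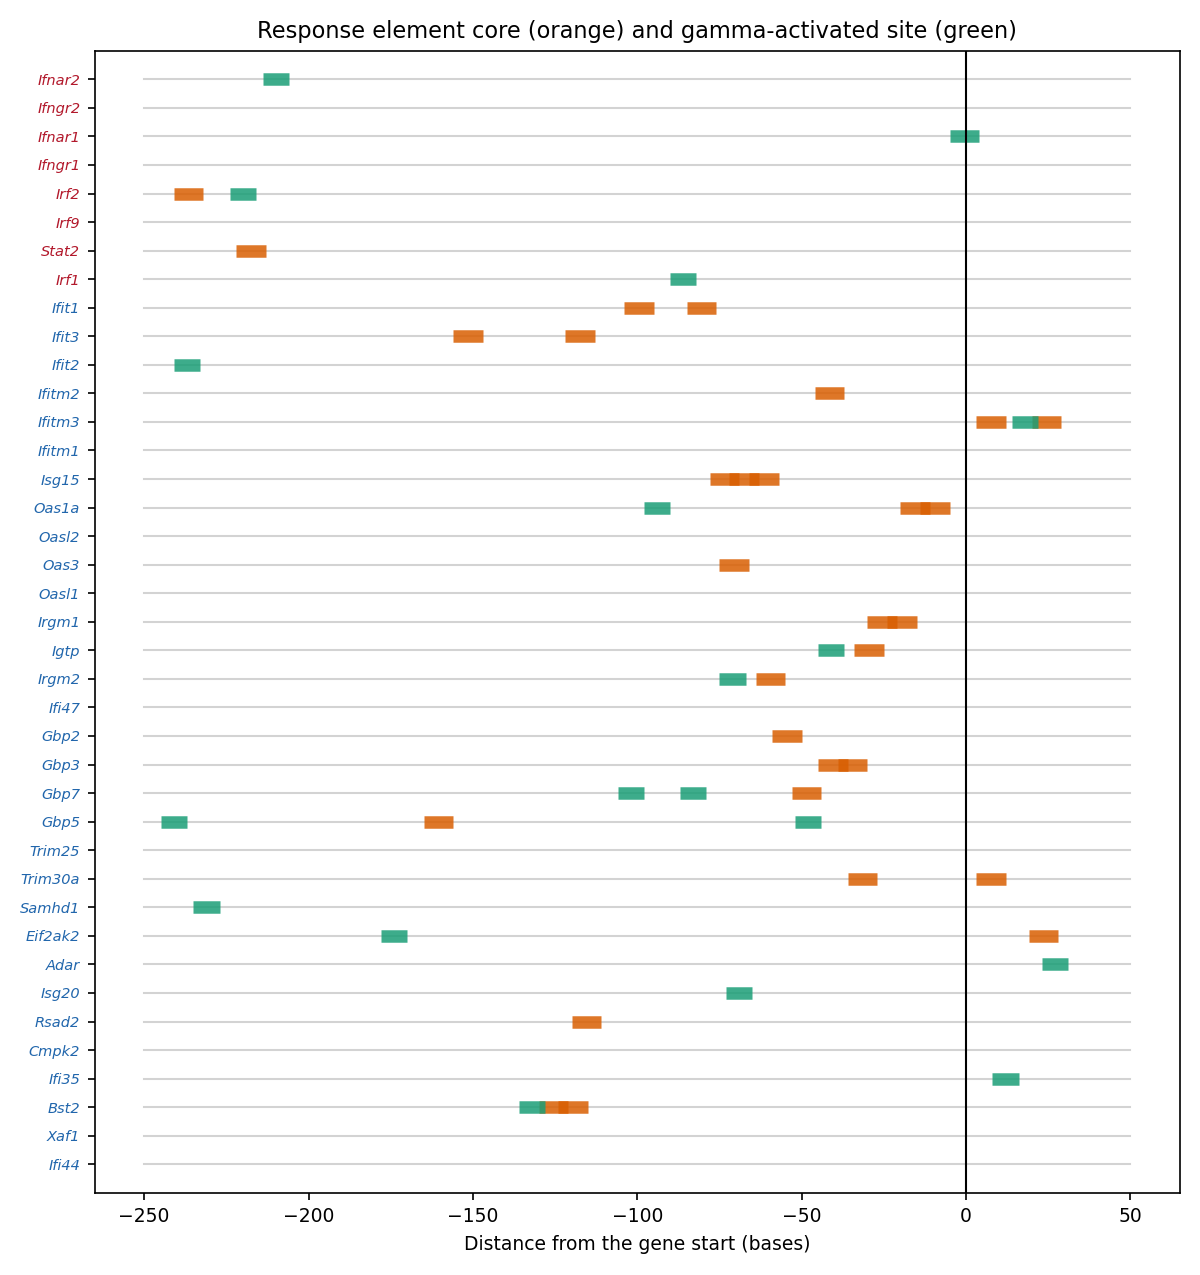
Positions of response element cores and gamma-activated sites in the promoters of the interferon genes with a RefSeq window, against distance from the start in bases. Most core matches lie between the start and 200 bases before it. None of the 4 receptors has a core, which 3.91% of all genes have. Orange bars are cores, green bars are gamma-activated sites, and all windows of a gene share a line.

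Of the 48 genes, 46 were detected, against 67.2% of all rows, and 1 was at 0. Together they held 0.19% of the sum of all values. Their median value was 705, which lay above 59.4% of the detected genes, and per kilobase their median lay above 55.7% of them. By value 10 genes stood above 1344 and 9 below 114, the upper and lower quartiles of the detected genes. The set was thus spread over the whole range rather than gathered at high or low levels.

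**Figure D2:**
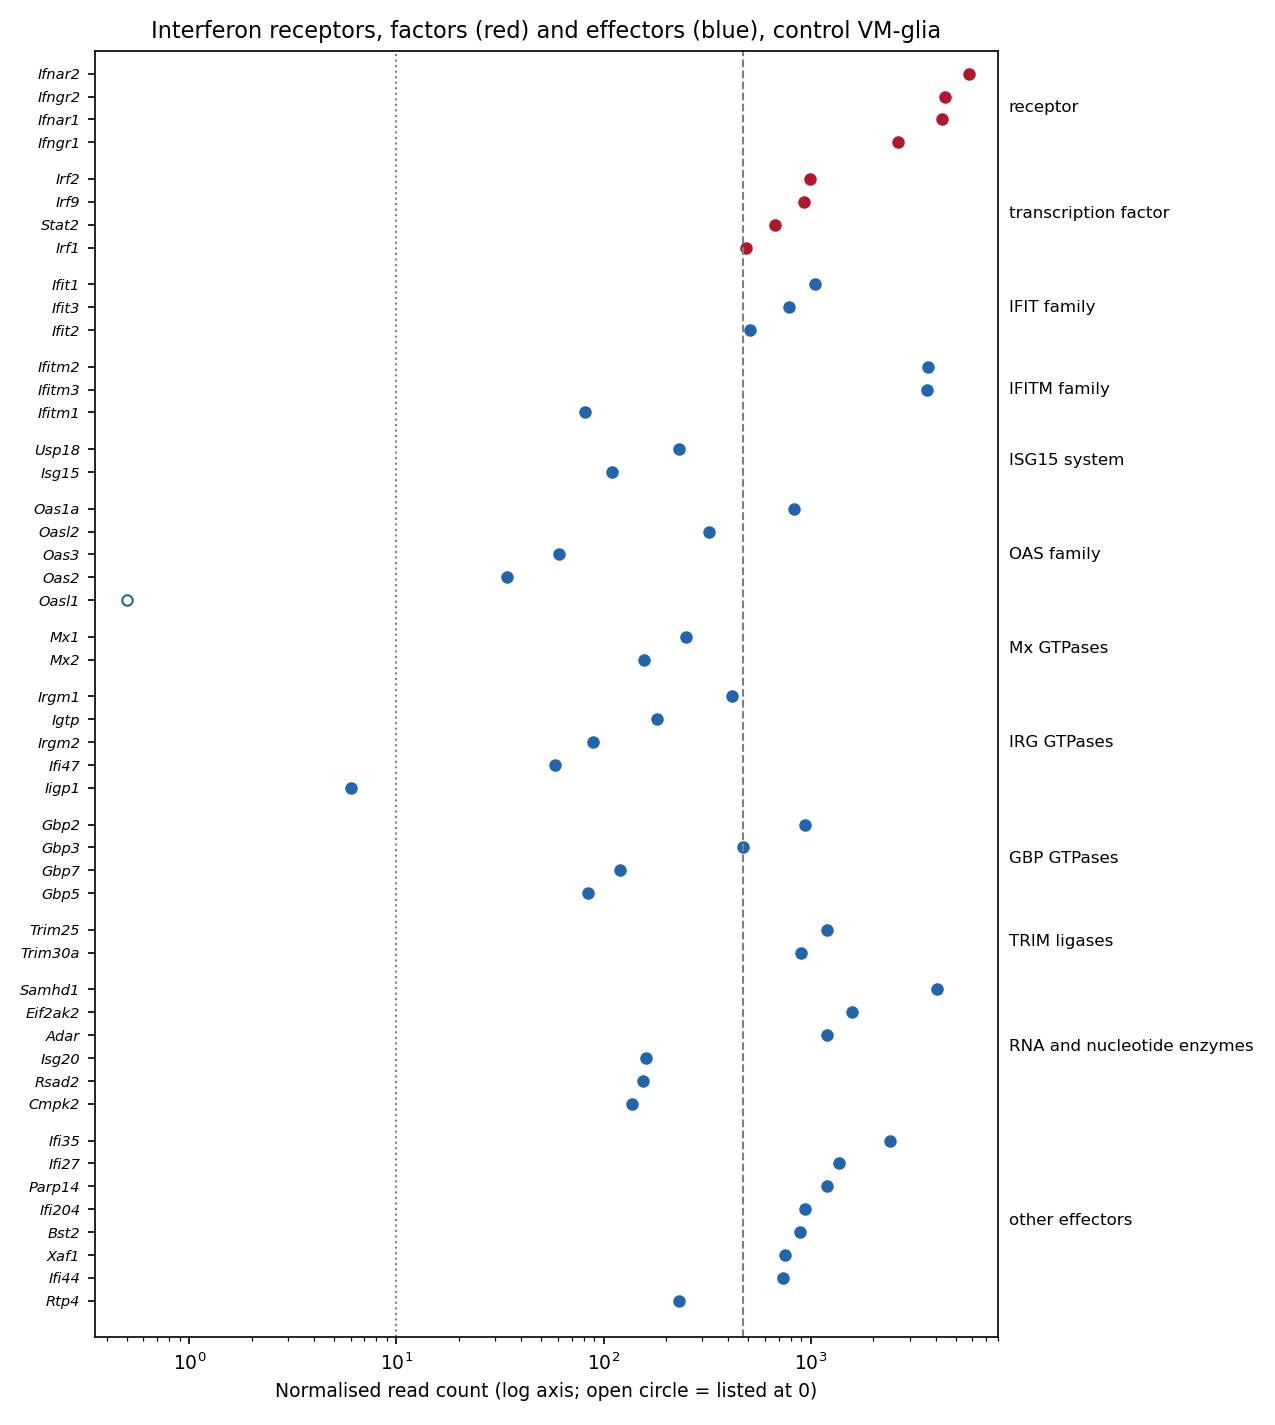
Normalised read count (log axis, 1 point per gene) of the 48 interferon genes in the control library by role, with receptors and transcription factors in red and effectors in blue. The dotted line is the detection minimum of 10, the dashed line the median of detected genes (469) and the open circle Oasl1 at 0, and the 4 receptors sit between 2631 and 5813.

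All 4 receptor chains were high. Ifnar2, the chain of the type I receptor that binds interferon most tightly, had a value of 5813, and its partner Ifnar1 had 4304. Ifngr2, the signalling chain of the interferon gamma receptor, had 4451, and the ligand-binding chain Ifngr1 had 2631. Each lay above at least 87.1% of the detected genes by value and 87.4% per kilobase. Per kilobase, Ifnar2 (1746) was 2.41 times Ifnar1 (725), and Ifngr2 (1182) was 1.28 times Ifngr1 (924). Both ratios depended on which transcripts set the exon length. With the GENCODE basic transcripts the first was 1.66 and the second 0.96, so the order within the second pair turned. Ifnar1, Ifnar2 and Ifngr2 are neighbours on chromosome 16 (GRCm38, chr16:91372783-91565623), and their values differed 1.35-fold from the lowest to the highest, with Ifnar2 and Ifnar1 the extremes on both scales.

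The 4 transcription factors were lower than the receptors and nearer the middle of the detected genes. Irf2, which binds many of the same sites as Irf1 and often opposes it, had a value of 991. Irf9, the DNA-binding part of the complex with the Stat proteins, had 926, and Stat2, a partner in that complex, had 675. Irf1, an activator that interferon gamma induces, had 484. Per kilobase all 4 fell between 114 for Stat2 and 172 for Irf9, while the detected genes had a median of 103. With the basic transcripts Irf2 rose from 134 to 397 per kilobase and was then 2.74 times Irf1, against 1.10 times with all transcripts. No order among these 4 can be given beyond error, since none could be measured.

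Receptors and transcription factors together were compared with the effectors. Their median was 1811 by value and 448 per kilobase, and the effector medians were 443.5 by value and 124 per kilobase. The ratio was thus 4.08 by value, 3.61 per kilobase and 5.00 per kilobase of basic exons. The pooled median of 1811 fell in a gap, since no receptor or transcription factor lay between 991 for Irf2 and 2631 for Ifngr1. Per kilobase the gap ran from 172 for Irf9 to 725 for Ifnar1. The receptors and the transcription factors stood apart from each other. The receptor median was 8.47 times the effector median per kilobase, 9.87 times by value and 8.17 times with basic exons. The transcription factor median was 1.03 times the effector median per kilobase, 1.80 times by value and 1.51 times with basic exons. No effector had a value above that of Ifnar2, and per kilobase only Ifitm2 and Ifitm3 did. Among the 40 effectors, 20 lay above the transcription factor median per kilobase and 3 above the receptor median. By value these counts were 15 and 0, and with basic exons 15 and 4.

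**Figure D3:**
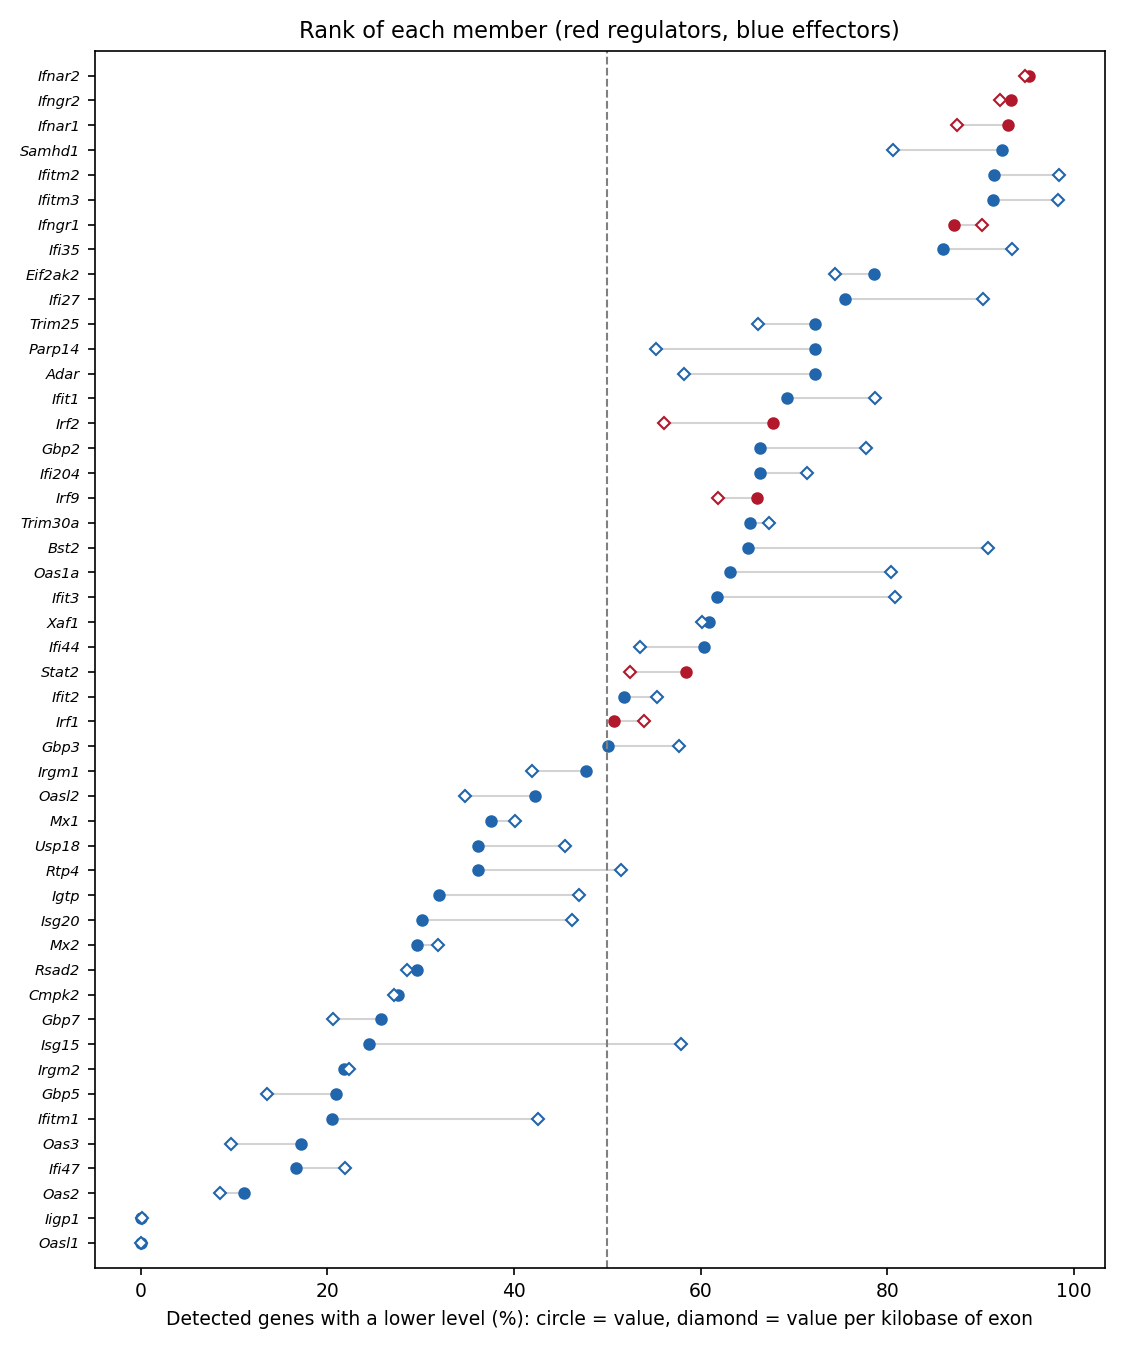
Percent of detected genes with a lower level than each of the 48 interferon genes, by value (circles) and per kilobase of exon (diamonds), with receptors and transcription factors in red, effectors in blue and a dashed line at the median of detected genes. Bst2 moves from 65.0% by value to 90.8% per kilobase and Isg15 from 24.5% to 57.9%, while the receptors stay at 87.1% or more.

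The effector families differed widely. The IFITM proteins sit in membranes and hinder the fusion of viruses, and their genes included the highest effectors per kilobase. Ifitm2 had a value of 3695 (5641 per kilobase) and Ifitm3 a value of 3626 (5348 per kilobase), above 98.4% and 98.3% of the detected genes on that scale. Ifitm1, in the same cluster on chromosome 7, had 81 (74.0 per kilobase). Ifitm3 was therefore 72.2 times Ifitm1 per kilobase. Of the Ifitm2 transcript, 66.1% matched other annotated genes at high identity, and 40.9% of its exon bases overlapped another gene on the same strand, so its value is uncertain. Ifitm1 shared 36.2% of its transcript with another gene, and Ifitm3 shared none.

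Enzymes acting on RNA or nucleotides ranged from high to low. Samhd1, which breaks down the building blocks of DNA and so restricts retroviruses, had the highest effector value, 4046 (442 per kilobase). Eif2ak2, the kinase PKR that halts translation on double-stranded RNA, had 1581, and Adar, which edits such RNA, had 1195. Isg20, an exonuclease, had 160. Rsad2, which encodes the antiviral enzyme viperin, had 155 and its neighbour Cmpk2, a nucleotide kinase, had 137. The levels of this last pair, which lie side by side on chromosome 12, differed 1.09-fold per kilobase, and with the basic transcripts Rsad2 was 0.96 times Cmpk2. Of the exon bases of Adar, 16.8% overlapped Chrnb2 on the opposite strand, and the strand setting of the counting was not given in the sources used here.

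The IFIT genes lay on chromosome 19. Ifit1 had a value of 1049, Ifit3 had 782 and Ifit2 had 509, and per kilobase Ifit3 had 448, Ifit1 had 395 and Ifit2 had 130. Ifit3 is nearly the same as its neighbour Ifit3b, which had 638: of the Ifit3 transcript, 97.4% matched other genes at 95% identity or more. Reads of these near copies can be split or dropped by the counting, so the value of each is uncertain.

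The OAS genes encode sensors of double-stranded RNA, several of which make oligoadenylates. They were uneven. Oas1a had a value of 825, Oasl2 had 324, Oas3 had 61 and Oas2 had 34, and Oasl1 was at 0. Oas1a was 57.3 times Oas2 and 50.7 times Oas3 per kilobase, although the 3 genes lie in 1 cluster on chromosome 5. With the basic transcripts these ratios were 51.0 and 33.9. The whole Oas1a transcript could be covered by high-identity matches to other genes, and its near copy Oas1g had 381, so the level of Oas1a is uncertain too.

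The guanylate-binding proteins and the immunity-related GTPases act on vacuoles that hold microbes, and interferon gamma is a strong inducer of both. Gbp2 had a value of 938, Gbp3 had 470, Gbp7 had 120 and Gbp5 had 84. Per kilobase, Gbp2 (373) was 29.5 times Gbp5 (12.7), and 13.6 times it with the basic transcripts. Of the IRG genes, Irgm1 had 417, Igtp had 181, Irgm2 had 89 and Ifi47 had 58, while Iigp1 was below detection at 6. All 5 IRG genes lay below the median of detected genes per kilobase, but with the basic transcripts Irgm1 lay above 56.1% of them. Igtp and Irgm2, whose promoters are printed above, had 89.5 and 24.1 per kilobase, and they share 162 exon bases.

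**Figure D4:**
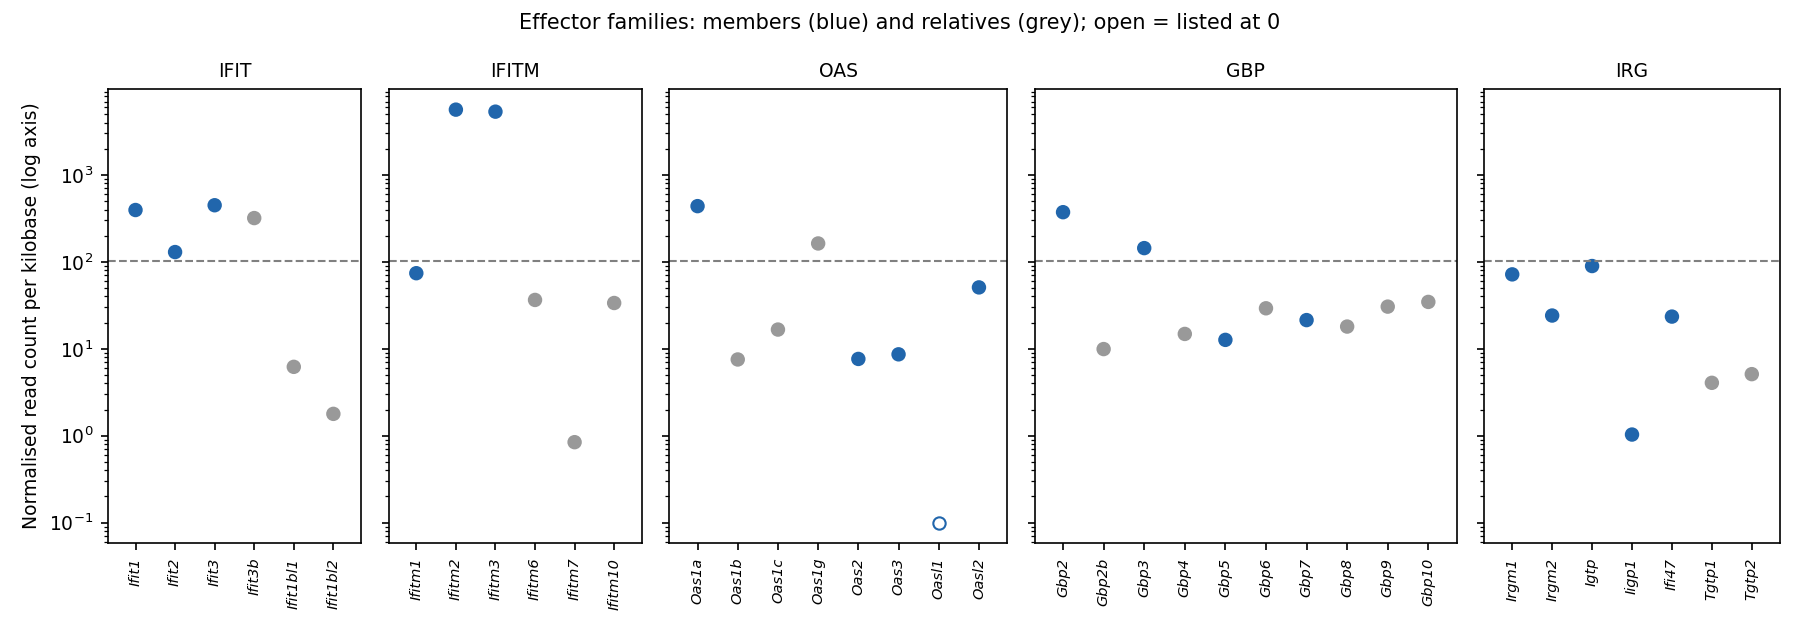
Level per kilobase of exon (log axis, 1 point per gene) of 5 effector families in the control library, with the interferon genes described here in blue, their relatives in grey, a gene at 0 as an open circle and the median of detected genes (103) as a dashed line. Ifitm2 and Ifitm3 stand at 5641 and 5348 per kilobase, whereas Oas2 and Oas3 lie below 10 and all 5 IRG genes below the dashed line, Irgm1 only with these exon lengths and not with those of the basic transcripts.

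The Mx genes belong to a family of dynamin-like GTPases known for blocking virus replication, and whether those of these mice do so was not tested. Mx1 had a value of 251 and Mx2 had 156, with 34.8% of the Mx2 transcript matching Mx1. Isg15 had 110, but its transcript is short, and per kilobase it reached 146, above 57.9% of the detected genes. Usp18, which removes ISG15 from its targets and dampens the type I receptor, had 232 (83.2 per kilobase). Of the Isg15 transcript, 63.8% matched another annotated gene.

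The TRIM ligases Trim25, which activates an RNA sensor, and Trim30a had values of 1198 and 899. Among the other effectors, Ifi35 had 2410 (1395 per kilobase), with 16.8% of its exon bases overlapping a gene on the opposite strand. Ifi27 had 1369, and Parp14, which attaches ADP-ribose to proteins, had 1198. Ifi204, a sensor of DNA, had 937, but 59.4% of its transcript matched related genes, of which Mnda had 424 and Mndal 610. Bst2, the tetherin that holds budding virus at the cell surface, had 890 (986 per kilobase), above 90.8% of the detected genes on that scale. Xaf1, a partner of a cell death inhibitor, had 753, Ifi44 had 735 and Rtp4 had 232.

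The other genes of the pathway were read from lists by step. Of 21 interferon genes, 1 was detected, against 67.2% of all rows, and 18 were at 0, Ifng among them. Ifnz, the only one detected, had 20, Ifnb1 had 6 and Ifnk had 2. The search for near copies covered only the 48 genes. Whether reads of similar interferon genes were split or dropped by the counting was therefore not tested. Of the receptor for lambda interferons, the specific chain Ifnlr1 had 48 (11.5 per kilobase), while Il10rb, a chain shared with other cytokine receptors, had 3689 (969 per kilobase).

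The Janus kinases were well above detection. Per kilobase, Jak1 had 666, Jak2 had 279 and Tyk2 had 92.9. Of the factors that induce interferons, Irf8 had 4222, Irf5 3753, Ikbke 2124, Tbk1 1591, Mavs 952, Irf3 736, Sting1 (listed as Tmem173) 639 and Irf7 399. Irf8 and Irf5 are known for their expression in microglia and other myeloid cells.

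Of the 7 negative regulators, 5 lay above the median of detected genes by value and 6 per kilobase, Trex1 among them only on the latter scale. Ptpn6, a phosphatase of haematopoietic cells, had 12215 (4359 per kilobase, below Ifitm2 and Ifitm3 but above the other effectors and the receptors). Ptpn1 had 2957, Ptpn2 1248, Socs3 1199, Pias1 834 and the DNase Trex1 310, whereas Socs1, an inhibitor that interferons induce, had 56. Of the enzymes that attach ISG15, the conjugating enzyme Ube2l6 was 5.64 times Isg15 per kilobase. The activating enzyme Uba7 was 0.78 times Isg15 per kilobase, but 1.63 times it with the basic transcripts, so their order depended on the exon length. The ligase Herc6 had 46.7 per kilobase.

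**Figure D5:**
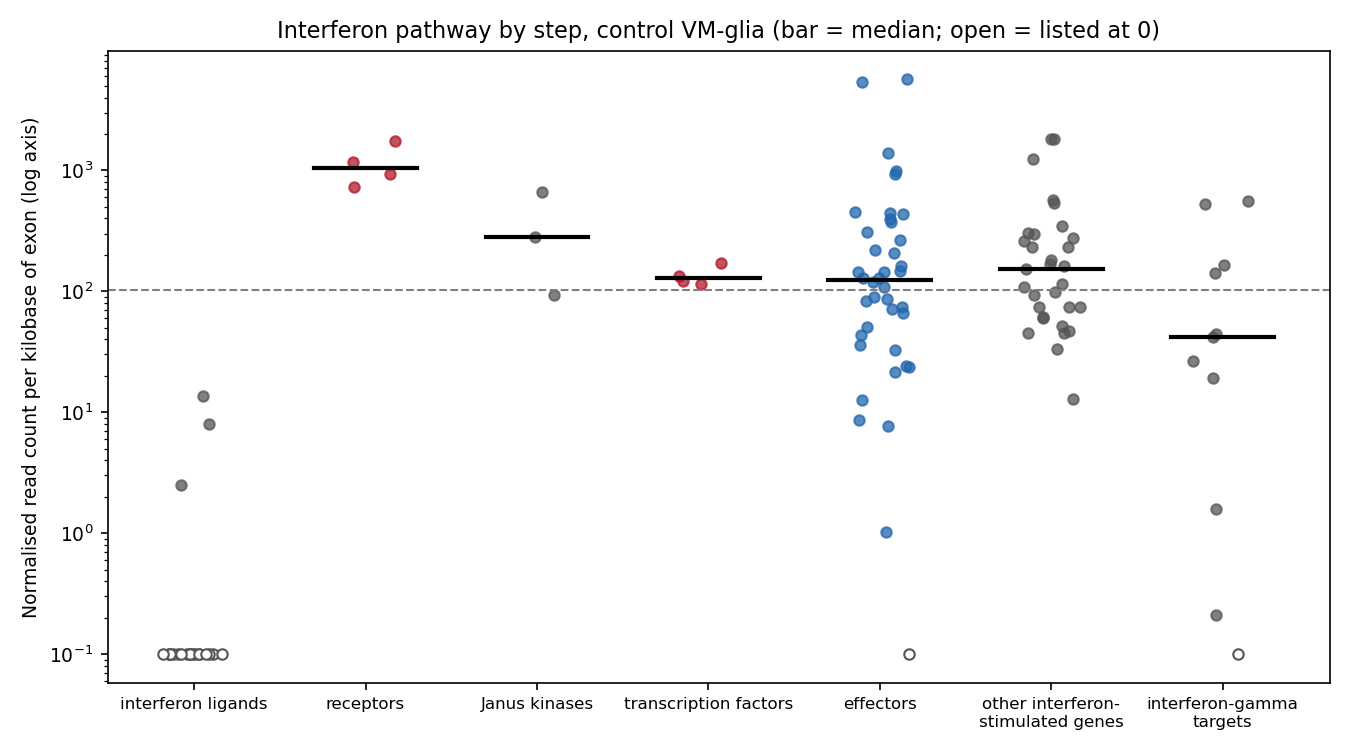
Level per kilobase of exon (log axis, 1 point per gene) by step of the interferon pathway in the control library. Bars mark medians above 0, so the ligands, with a median of 0, have none. Open circles are genes at 0, and the dashed line is the median of detected genes (103). Isg20 is counted with the effectors only, the ligands lie at 13.7 or below, and the receptors lie between 725 and 1746.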

How the data were processed

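RNA of 1 control culture was measured. Per the study's methods, reads were quality-trimmed, mapped with STAR to mm10 and counted on RefSeq genes with HTSeq-count, and FPKM were computed, whereas the submitters' processing notes name TopHat and edgeR. The authors deposited 1 value per gene, called a normalised read count, which was treated as a score of whole numbers. The normalisation, strand setting and multi-read handling are not given in the sources used here, so the depth is unknown, and the sum of 27569507 stands in its place with no interval. A different normalisation could change levels between genes.

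Exon lengths came from GENCODE M21 (GRCm38), which matched 22890 rows (98.3%). Values were scaled per 1000000, and log2 differences used a pseudocount of 1. Near copies were genes matching 20% or more of a gene's longest coding transcript at 95% identity over 50 bases (BLAST 2.17.0), since no protein sequences were used. Promoters were RefSeq windows. Python 3.11.15, numpy 2.4.6, pandas 2.3.3 and matplotlib 3.10.9 were used, and scripts were tested on simulated data. Every one of the 48 genes is given, of pathway lists of up to 9 genes every gene, of longer lists the 3 highest, the lowest and the number at 0, and of marker lists the highest and lowest. Some genes of these lists are not reported here. Genes singled out beyond this rule (Ifng, Oas1g, Mnda, Mndal and Chrnb2, and Cxcl9, Cxcl10, Nos2 and Ciita in the closing section) were chosen after their values were seen. The genes and lists were chosen with earlier results of these data known.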

Additional observations from a re-analysis of the deposited data

How the results depend on the processing

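The comparisons were repeated with 22 alternative settings, 5 of them chosen after seeing the data. Only the log2 difference of receptors and transcription factors from effectors has a direction that could turn, and it turned in none of its settings. In 13 settings the value stayed within its limit, which was 1.5-fold for counts and for that difference. For percentiles and shares any change counted as a move. Between single genes, the basic transcripts turned the per-kilobase order of Ifngr2 to Ifngr1 (1.28 to 0.96), Uba7 to Isg15 (0.78 to 1.63) and Rsad2 to Cmpk2 (1.09 to 0.96), and moved Irgm1 above and Ifit2 and Rtp4 below the median of detected genes. The median percentile of the interferon genes, 59.4 by value, was 55.7 per kilobase of exon, 54.8 per kilobase of basic exons, 65.1 among genes at 1 or more and 47.1 among genes at 100 or more. The log2 difference of receptors and transcription factors from effectors was taken between medians of log2 values, so it need not equal the log2 of the ratios above. It was 1.81, and 3.23 for receptors alone and 0.80 for transcription factors alone. For transcription factors alone it became 0.037 per kilobase and 0.48 per kilobase of basic exons. The share of the sum, 0.19%, was 0.22% without the 10 highest genes. Detection gave 47 genes at minima of 1 and 3, and 40 at 100. The planned use of protein identity for near copies was not run, and transcript matches took its place. No paired analysis was possible because there was 1 library. Its depth and its replicate error are unknown, so values near 10 cannot be told from absence.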

Other observations

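Further interferon-stimulated genes outside the 48 had levels near those of the effectors. Of 33 such genes in a list, 32 had a row and all 32 were detected, against 67.2% of all rows, with a median of 546.5 by value and 134 per kilobase. The list shares Isg20 with the 48. The highest were Lgals3bp at 5138, the RNA helicase Znfx1 at 4664 and Ly6e at 4656, and the lowest was Ifi44l at 62. The response element core was in 9 of the 27 promoters of the list (33.3%, against 3.91% of all genes), and the gamma-activated site in 1 (3.70%, against 9.26%).

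Genes known as targets of interferon gamma were mixed. Of 11 such genes, 8 were detected, a share near the 67.2% of all rows, and Ido1 was at 0, with a median of 162 by value. Cd274, the checkpoint ligand PD-L1, had 1921, the immunoproteasome subunit Psmb8 had 1889 and the peptide transporter Tap1 had 772. The chemokines Cxcl10 and Cxcl9 had 371 and 80, while Nos2 had 7 and Ciita, the master activator of MHC class II genes, had 2. Of 27 relatives of the 48 genes, 22 were detected (67.2% of all rows were), with Ifi202b (952), Ifit3b (638) and Ifi27l2a (619) the highest and Ifi27l2b (1) the lowest.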
